A study of Mus musculus with 4 samples.

Results

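Excitatory neurons (EN) of the cortex are recognised by a small set of genes, and 9 of them are described here in cultures of mouse prefrontal cortex (PFC) grown with or without fibroblast growth factor 2 (FGF2): the basic helix-loop-helix (bHLH) factors Neurod1, Neurod2, Neurod6 and Bhlhe22, the adaptor Sla, the calmodulin-binding protein Nrgn, the vesicular glutamate transporters Slc17a6 and Slc17a7, and the surface protein Nrn1. They were chosen by name, with earlier results of these data known. Each was found by its Ensembl identifier among the 55421 genes listed for every library. All 9 passed the expression filter, as did 17144 genes in all. PFC tissue of wild-type C57BL/6 mice at postnatal day 0 was dissociated, cultured for 10 days in neurobasal medium with B27 and GlutaMAX, and sequenced as total RNA in 4 libraries, 2 with FGF2 at a dose of 5 ng/mL in the medium and 2 with none. The libraries held 9166432 to 10799886 counts on genes. The cultures were not sorted, so every level is an average over all cells in a dish. The sample titles number the libraries of each group as B1 and B2, here replicates 1 and 2, and the study's methods name technical replicates for most of its samples, so separate cultures are not stated for a group and every p-value covers the spread between libraries, which may be technical.

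The bHLH factors act in sequence when a cortical progenitor becomes an EN. Proneural factors such as Neurog2 start the program, Neurod1 follows as cells leave division, and Neurod2, Neurod6 and Bhlhe22 are kept in postmitotic neurons. NeuroD proteins bind short DNA motifs called E-boxes together with widely expressed E proteins, and Id proteins hold E proteins away from DNA. In mature EN, Slc17a7 (VGLUT1) and Slc17a6 (VGLUT2) load glutamate into synaptic vesicles, and Nrgn holds calmodulin in dendritic spines.

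The NeuroD genes are close relatives, and the reads of each must be told from those of the others before their levels are compared. The stretch of 180 coding bases in which they are most alike is given here from the mm10 transcripts of GENCODE M21, 5′ to 3′, with capitals at the 53 bases that are not the same in all 3 genes. Each stretch lies in the single coding exon of its gene, on the minus strand, at chr2:79454543-79454722 for Neurod1, chr11:98327779-98327958 for Neurod2 and chr6:55679177-55679356 for Neurod6.
Neurod1: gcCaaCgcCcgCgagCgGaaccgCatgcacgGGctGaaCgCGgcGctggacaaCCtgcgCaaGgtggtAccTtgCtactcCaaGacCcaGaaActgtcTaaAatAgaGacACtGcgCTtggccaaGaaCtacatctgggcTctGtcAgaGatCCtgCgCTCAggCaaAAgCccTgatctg
Neurod2: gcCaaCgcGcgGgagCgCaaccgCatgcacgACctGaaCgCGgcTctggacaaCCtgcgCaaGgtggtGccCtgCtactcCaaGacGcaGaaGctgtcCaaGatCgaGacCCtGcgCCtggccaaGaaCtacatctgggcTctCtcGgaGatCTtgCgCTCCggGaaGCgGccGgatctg
Neurod6: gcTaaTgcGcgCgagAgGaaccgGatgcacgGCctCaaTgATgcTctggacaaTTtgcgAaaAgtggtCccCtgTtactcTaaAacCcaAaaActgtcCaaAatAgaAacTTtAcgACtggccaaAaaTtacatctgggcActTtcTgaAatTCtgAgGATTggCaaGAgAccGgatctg
Neurod1 and Neurod2 were identical at 86.7% of these bases, Neurod1 and Neurod6 at 76.1%, and Neurod2 and Neurod6 at 75.0%. The longest run of bases shared without a difference by the whole transcripts was 25 for Neurod1 and Neurod2, 17 for Neurod1 and Neurod6, and 11 for Neurod2 and Neurod6. No alignment of 100 bases or more at 95% identity or more joined any of the 3 transcripts to another NeuroD gene. Neurod1 shares 201 exonic bases, its first exon, with the Cerkl gene on the same strand, and reads that fall there only are ambiguous between the genes.

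The 9 genes did not all change in the same direction with FGF2. Neurod1, Neurod2, Bhlhe22, Sla and Slc17a6 had a lower level with FGF2, Nrgn had a higher level, and Neurod6, Slc17a7 and Nrn1 did not pass the threshold of an adjusted p-value of 0.05 (quasi-likelihood test of edgeR, Benjamini-Hochberg adjustment over 17144 genes). Thus 5 of the 9 genes fell, where 19.9% of all tested genes did. For rises it was 1 of 9, where 20.7% of all tested genes rose. The genes were chosen with earlier results known, and the study had reported Sla as lower with FGF2 in these cultures. These shares are therefore a description and not an independent result. In bulk RNA, fewer cells of a type and less RNA per cell cannot be told apart. The median log2 fold change, FGF2 over no FGF2, was -0.34 over the 9 genes and -0.00082 over all tested genes. Both libraries with FGF2 lay below both libraries without FGF2 for 5 of the 9 genes, against 33.4% of all tested genes, and above them for 2 of the 9 genes, against 33.6%. With DESeq2, the tool named in the study's methods, 3 of the 9 genes were lower, against 11.2% of the genes it gave an adjusted p-value, and 1 was higher, against 12%.

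**Figure D1:**
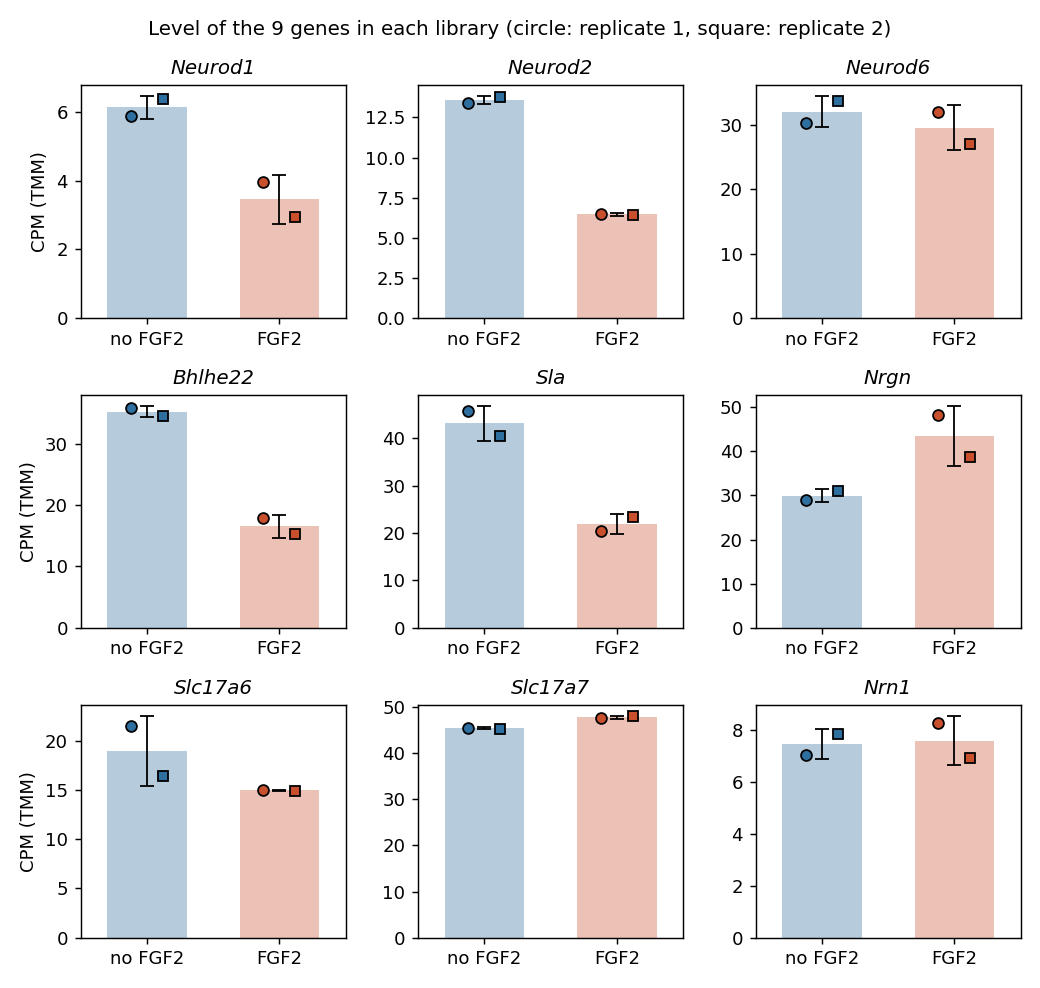
Level of each of the 9 genes as CPM (counts corrected for library size, linear axis from 0) without FGF2 (blue) and with FGF2 (orange). Points are libraries (circle, replicate 1, square, replicate 2), bars are means of 2 libraries and error bars are SD. Neurod2, Bhlhe22 and Sla are clearly apart between the groups, whereas the libraries of Neurod6 and of Nrn1 overlap.

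Neurod2, which drives the maturation of cortical EN, was counted 59 and 63 times with FGF2 and 141 and 149 times without FGF2. Expressed as CPM, which corrects for library size, it had 6.50 and 6.41 with FGF2 and 13.4 and 13.8 without FGF2. The groups did not overlap, and the 2 libraries of a group differed far less than the groups did. Its level with FGF2 was 47.5% of that without FGF2 (log2 fold change -1.07, standard error 0.20, edgeR adjusted p = 2.88e-07). Leaving out any 1 library gave log2 fold changes from -1.10 to -1.06.

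Neurod1, the first of the NeuroD factors in the sequence, had the fewest counts of the 9 genes, with counts of 36 and 29 under FGF2, against 62 and 69 in its absence. These correspond to 3.97 and 2.95 CPM with FGF2 and 5.90 and 6.37 CPM without FGF2, again without overlap between the groups. The fall was 1.78-fold (log2 fold change -0.83, standard error 0.28, edgeR adjusted p = 0.0104). Its 95% interval, from -1.39 to -0.28, was the widest among the 5 lower genes. The exact Poisson interval of the 29 counts alone ran from 19.4 to 41.6 counts, and it covers counting error only. The call was lost with DESeq2 (adjusted p = 0.170), with replicate 2 of the FGF2 cultures left out (log2 fold change -0.63, edgeR adjusted p = 0.123) and with replicate 2 of the untreated cultures left out (-0.78, edgeR adjusted p = 0.0965). Cerkl, with which it shares its first exon, had 28 to 45 counts per library and its fitted log2 fold change was -0.34 (adjusted p by edgeR, 0.423).

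Neurod6, a NeuroD factor of postmitotic pyramidal neurons, had the highest level per kilobase of the 3 family members and was not shown to change. It had 32.0 and 27.0 CPM with FGF2 and 30.3 and 33.7 CPM without FGF2. Replicate 1 with FGF2 lay between the libraries without FGF2, so the groups overlapped. The log2 fold change was -0.12 (standard error 0.11, edgeR adjusted p = 0.423), with a 95% interval from -0.34 to 0.10. This interval overlapped that of Neurod1 (-1.39 to -0.28) and lay apart from that of Neurod2 (-1.46 to -0.69). Whether the fold changes of the family members differ from each other was not tested.

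Bhlhe22, a repressor of the same bHLH class that works with Prdm8 in cortical neurons, was the gene of the 9 with the lowest fitted fold change. It had 17.9 and 15.3 CPM with FGF2 and 35.9 and 34.5 CPM without FGF2, so each library with FGF2 was well below each library without it. The level was 2.13-fold lower with FGF2 (log2 fold change -1.09, standard error 0.12, edgeR adjusted p = 2.43e-17). Of all tested genes, 2.29% had a lower log2 fold change than Bhlhe22 and 2.41% had a lower one than Neurod2. Its partner Prdm8 had 14.5 ± 0.706 CPM without and 13.2 ± 0.676 CPM with FGF2 (SD, n = 2), and its log2 fold change was -0.14 (adjusted p by edgeR, 0.525).

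Sla, which encodes a Src-like adaptor without a kinase domain that damps receptor signalling in lymphocytes and is also expressed in cortical neurons, was counted 185 and 230 times under FGF2, against 481 and 439 times in its absence. As CPM it had 20.4 and 23.4 with FGF2 and 45.8 and 40.5 without FGF2, with no overlap. The level was 1.97-fold lower with FGF2 (log2 fold change -0.98, standard error 0.11, edgeR adjusted p = 4.03e-17). Its 95% interval, from -1.19 to -0.76, overlapped those of Neurod2 (-1.46 to -0.69) and Bhlhe22 (-1.33 to -0.85), so the falls of these genes could not be ranked. The whole of Sla, at chr15:66780819-66831829 on the minus strand of mm10, lies within Tg, the thyroglobulin gene, on the plus strand, but 0 of its exonic bases overlap an exon of Tg. Tg was counted 8 and 25 times under FGF2, against 38 and 35 times in its absence, and its fitted log2 fold change was -0.97 (adjusted p by edgeR, 0.0363). Among markers of immune cells, Cd3e had no count in any library, which allows up to 3 counts, whereas Ptprc (log2 fold change 2.07) and Csf1r (1.43) were higher with FGF2, from 3 and 10 to 21 and 28 counts and from 21 and 21 to 49 and 52 counts. The part of immune cells in the level of Sla was not tested.

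**Figure D2:**
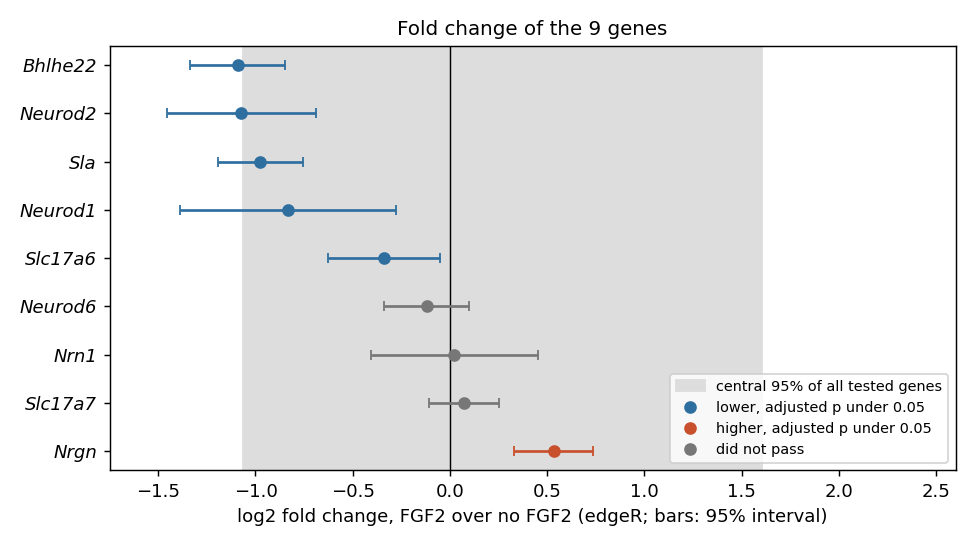
Log2 fold change of the 9 genes, FGF2 over no FGF2, with 95% intervals from edgeR (blue, lower, orange, higher, grey, not past an adjusted p-value of 0.05). The grey band holds the central 95% of the 17144 tested genes, from -1.06 to 1.60, and only Bhlhe22 at -1.09 and Neurod2 at -1.07 lie outside it.

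Nrgn, which encodes the postsynaptic protein neurogranin, went the other way. It was counted 438 and 380 times under FGF2, against 303 and 336 times in its absence, that is 48.3 and 38.6 CPM against 28.8 and 31.0 CPM. Each library with FGF2 was above each library without FGF2, although the libraries with FGF2 differed by more than those without. The level was 1.45-fold higher with FGF2 (log2 fold change 0.53, standard error 0.10, edgeR adjusted p = 1.71e-06), and it passed with DESeq2 (adjusted p = 0.00792). With a library left out, the log2 fold change lay between 0.36 and 0.69 and the edgeR adjusted p-value was at most 0.0108.

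The vesicular glutamate transporters differed in level and in their values with FGF2. Slc17a6 had 15.0 and 14.9 CPM with FGF2 and 21.5 and 16.4 CPM without FGF2, so the groups did not overlap but the libraries without FGF2 were wide apart. Its log2 fold change was -0.34 (standard error 0.15) with an edgeR adjusted p-value of 0.04996, just inside the threshold. The value depended most on the libraries without FGF2, since it was -0.14 with their replicate 1 left out (edgeR adjusted p = 0.650) and -0.53 with their replicate 2 left out (edgeR adjusted p = 0.0148). The call was lost as well with replicate 1 (edgeR adjusted p = 0.104) or replicate 2 (edgeR adjusted p = 0.122) of the FGF2 libraries left out. The call was also lost with DESeq2 (adjusted p = 0.346), with limma-voom (adjusted p = 0.0657), with no expression filter (edgeR adjusted p = 0.0852) and with a minimum of 10 counts in every library (edgeR adjusted p = 0.0506).

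Slc17a7 had 47.5 and 48.0 CPM with FGF2 and 45.5 and 45.3 CPM without FGF2. Each FGF2 library exceeded each untreated one by a small margin, and the log2 fold change of 0.07 (standard error 0.09, 95% interval -0.11 to 0.25, edgeR adjusted p = 0.568) did not pass the threshold. Corrected for the joined length of all annotated exons, the ratio of Slc17a7 to Slc17a6 within a library was 3.17 and 3.22 with FGF2. Without FGF2 it was 2.12 and 2.76. The size of this ratio depends on the length used. On the log2 CPM scale (prior count 1) the difference between the transporters was 1.67 ± 0.013 (SD, n = 2) in FGF2 libraries against 1.27 ± 0.27 in the others, and these differed by 0.40 (two-sided p = 0.333 by an exact permutation test, which cannot go lower with 2 libraries against 2).

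Nrn1, which encodes neuritin, a membrane-anchored protein that promotes neurite growth and is induced by activity, was low in every library, with 68 to 85 counts. It had 8.27 and 6.91 CPM with FGF2 and 7.04 and 7.85 CPM without FGF2, and the groups overlapped. The log2 fold change was 0.02 with a 95% interval from -0.41 to 0.45 (edgeR adjusted p = 0.949), and its sign turned under some alternatives, so no direction is given. Of its exonic bases, 501 are also exonic in Fars2 on the opposite strand, and Fars2 had 197 to 231 counts per library and its log2 fold change was 0.34 (adjusted p by edgeR, 0.0247).

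On mm10, Bhlhe22 spans chr3:18054174-18057517 on the plus strand as 1 exon, Slc17a6 spans chr7:51622006-51671119 and Slc17a7 chr7:45163949-45176142, both on the plus strand, and Nrgn spans chr9:37544492-37552904 and Nrn1 chr13:36725361-36735131, both on the minus strand. Counts cover the exons of each gene, so levels of different genes were compared per kilobase of exon. This length joins the exons of all annotated transcripts of a gene, whether expressed here or not. The order between genes depends on that choice, while the comparison of a gene between groups does not. With FGF2 the order from high to low was Nrgn, Neurod6, Slc17a7, Bhlhe22, Nrn1, Slc17a6, Sla, Neurod2 and Neurod1, with means from 29.9 CPM per kilobase for Nrgn to 1.27 for Neurod1. Without FGF2 the order was Nrgn, Neurod6, Bhlhe22, Slc17a7, Sla, Neurod2, Slc17a6, Nrn1 and Neurod1, with means from 20.6 to 2.25 CPM per kilobase. Neighbours in these orders had separate libraries, except Slc17a6 and Nrn1 without FGF2, whose libraries overlapped. Within the NeuroD family, Neurod6 had 13.7 CPM per kilobase, Neurod2 2.05 and Neurod1 1.27 with FGF2, and 14.9, 4.33 and 2.25 without FGF2. Bhlhe22 moved from above to below Slc17a7, with 10.5 and 8.42 CPM per kilobase without FGF2 and 4.95 and 8.85 with FGF2.

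The cultures hold many cell types, and their markers moved with FGF2 as well. Of 12 pan-neuronal markers, such as Tubb3 and Map2, 10 were lower and 1 was higher with FGF2, with a median log2 fold change of -0.43 and a summed level of 3857 and 3977 CPM against 5578 and 5559 CPM. Of 9 markers of inhibitory neurons 9 were lower (median -0.67, summed 664 and 672 CPM against 1094 and 1133 CPM). In contrast, 7 of 8 astrocyte markers were higher (median 0.44, summed 12460 and 12342 CPM against 7546 and 7498 CPM) and 7 of 7 tested oligodendrocyte lineage markers were higher (median 2.18, summed 1535 and 1554 CPM against 457 and 472 CPM), while Mog was at 1 to 4 counts. The forebrain markers Emx2 (log2 fold change 0.16) and Lhx2 (0.02) did not pass the threshold, and of the thalamic markers Tcf7l2 rose from 57.3 and 58.1 to 158 and 154 CPM (log2 fold change 1.44), while Gbx2 and Lhx9 had 0 to 1 and 1 to 10 counts. The part of these shifts in the changes of the 9 genes was not tested.

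To set the 9 genes against the neurons as a whole, the mean log2 CPM of the 12 pan-neuronal markers was subtracted in each library. On this scale the difference, FGF2 minus no FGF2, was -0.65 for Bhlhe22, -0.62 for Neurod2, -0.54 for Sla and -0.39 for Neurod1, and for each of them both libraries with FGF2 lay below both without. Nrgn was higher by 0.97, Slc17a7 by 0.51, Nrn1 by 0.46 and Neurod6 by 0.32, with both libraries with FGF2 above both without. For Neurod1 the difference was -0.24 with markers of at least 50 CPM only, where the groups overlapped, and -0.19 with FGF2 replicate 2 left out. Slc17a6 overlapped between the groups, with a difference of 0.11. For the 8 genes other than Slc17a6 the exact permutation test gave a two-sided p = 0.333, the smallest possible here, and for Slc17a6 it gave p = 1. The markers themselves had a median log2 fold change of -0.43, so a gene whose own level did not change sits higher on this scale. Slc17a7, Neurod6 and Nrn1 did not pass the test on library totals, so their higher position here does not show a rise of their own. The share of all tested genes set apart on this scale was not computed. A marker list that itself spans log2 fold changes from -1.10 to 0.38 is only a rough yardstick.

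**Figure D3:**
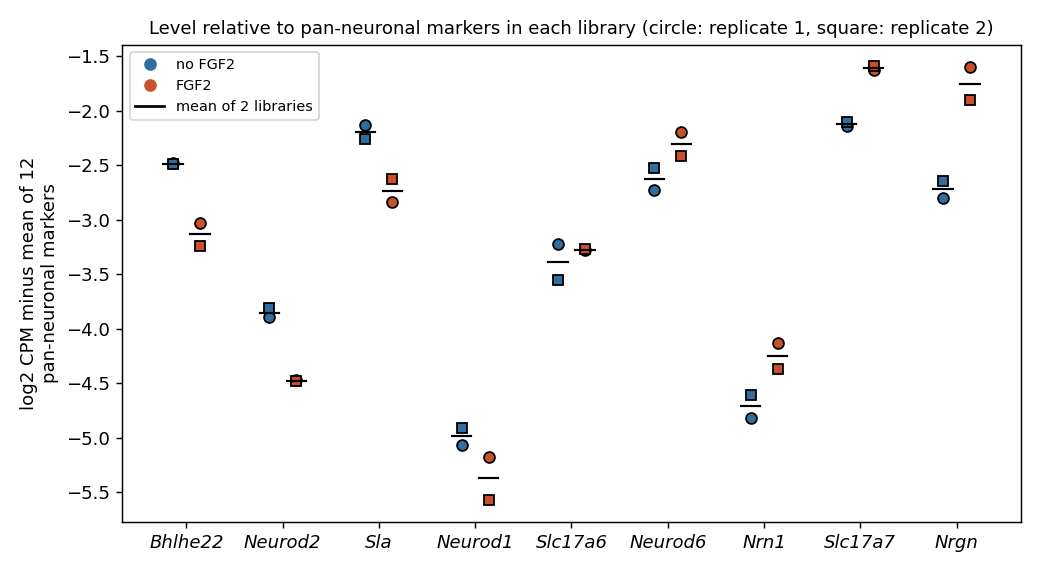
Level of each gene minus the mean of 12 pan-neuronal markers, in log2 CPM, in each library without FGF2 (blue) and with FGF2 (orange), ordered by the difference between the groups. The horizontal lines are means of 2 libraries, and the difference runs from -0.65 for Bhlhe22 to 0.97 for Nrgn.

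Related genes were counted in lists grouped by role. Among proneural and other neuronal bHLH factors, Neurog1 and Bhlhe23 had no count in any library, which allows up to 3 counts or 0.327 CPM in the shallowest library, and Neurog2, Neurod4, Nhlh1 and Nhlh2 had 0 to 8 counts. Among 11 dimer partners and inhibitors 3 were higher and 2 were lower. The E proteins Tcf12 (log2 fold change 0.45) and Tcf3 (0.23) were higher and Tcf4 (0.06, edgeR adjusted p = 0.127) did not pass. Of the Id genes, Id3 was higher (0.50), Id2 (-0.30) and Id4 (-0.25) were lower, and Id1 did not pass (-0.38, edgeR adjusted p = 0.0676). With DESeq2, 1 gene of this list was higher and 0 were lower, and Tcf3, Id3, Id2 and Id4 did not pass (adjusted p = 0.217, 0.111, 0.0786 and 0.0707).

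Among 12 factors of the cortical EN lineage and its layers, 3 were lower, 2 were higher and 7 did not pass. Tbr1, a deep layer factor, fell from 44.5 ± 0.515 to 21.2 ± 0.985 CPM (SD, n = 2), and Bcl11b, which marks corticospinal neurons and many inhibitory neurons, fell from 164 ± 4.21 to 85.0 ± 2.41 CPM. Their log2 fold changes of -1.07 and -0.95 were of the size found for Neurod2, Bhlhe22 and Sla. Cux2 was lower as well (-0.36), while the progenitor and astrocyte factor Pax6 (0.43) and the layer 4 factor Rorb (0.47) were higher. The fitted values of the 7 that did not pass ranged from -0.60 for Emx1 (edgeR adjusted p = 0.0998) to 0.62 for Eomes, which had 4 to 16 counts (edgeR adjusted p = 0.416).

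Nrgn and the genes of the calmodulin system had calls of opposite sign. All 9 tested genes of the calmodulin system were lower with FGF2, with a median log2 fold change of -0.29, including Camk2b (-0.70), Camk2a (-0.45) and Gap43 (-0.40), a presynaptic relative of Nrgn that also binds calmodulin. Pcp4 had 1 to 15 counts and was not tested. Among vesicular transporters, Slc32a1, which loads GABA and glycine, fell from 54.2 ± 0.951 to 22.6 ± 1.21 CPM (SD, n = 2), a log2 fold change of -1.26 (standard error 0.10, edgeR adjusted p = 5.17e-32). Slc17a8 (VGLUT3) had 33 to 46 counts per library and did not pass (-0.08, edgeR adjusted p = 0.869), and the monoamine and acetylcholine transporters Slc18a1, Slc18a2 and Slc18a3 had 0 to 12 counts.

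Among kinases and ubiquitin ligases linked to Sla, 3 were higher, 1 was lower and 3 did not pass. Fyn (log2 fold change 0.63), Lyn (0.67) and Syk (2.20) were higher and Src was lower (-0.26), while Cbl (-0.09), Cblb (0.13) and Lck (-0.06) did not pass, and the relative Sla2 had 0 to 4 counts. Lyn did not pass with DESeq2 (adjusted p = 0.103), and the list had 0 lower genes with GC and length offsets, so the call of Src was lost there. Lyn and Syk are abundant in immune cells and Fyn in oligodendrocytes, and 3 of 3 tested microglia and immune markers were higher with FGF2 as well (median 1.43, summed 12.3 and 13.9 CPM against 4.85 and 5.36 CPM), beside the oligodendrocyte lineage markers given above, and the part of either in these changes was not tested. Among activity-regulated genes, to which Nrn1 belongs, Fos had the highest fold change and rose from 15.4 ± 0.128 to 54.7 ± 4.01 CPM (SD, n = 2), with Nr4a1 (1.05) and Bdnf (0.77) also higher. Homer1 (-0.49) and Arc (-0.59, edgeR adjusted p = 0.0451) were lower, Bdnf and Arc did not pass with DESeq2 (adjusted p = 0.102 and 0.386), Npas4 (0.30) and Nptx2 (-0.49) did not pass, and Nrn1l had at most 2 counts. In all, 18 of 50 tested genes of the lists were lower and 13 were higher, with a median log2 fold change of -0.10. Over all tested genes, 19.9% were lower and 20.7% were higher. With DESeq2, 13 genes of the lists were lower and 9 were higher. The lists were chosen with earlier results known, so these counts are a description only.

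**Figure D4:**
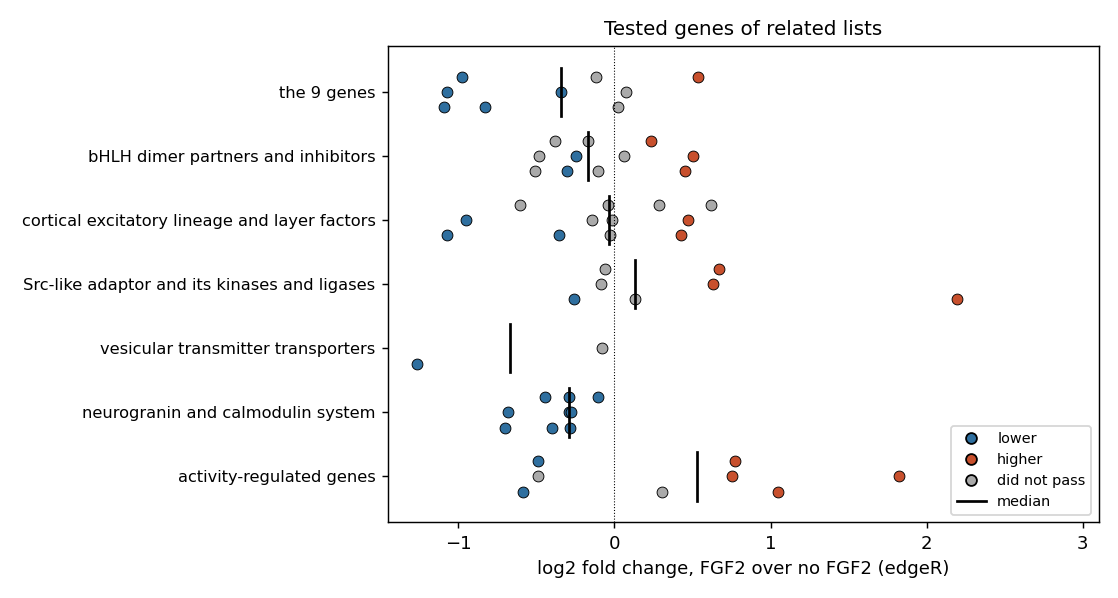
Log2 fold change, FGF2 over no FGF2, of every tested gene of 6 related lists and of the 9 genes themselves (blue, lower, orange, higher, grey, not past an adjusted p-value of 0.05, black line, median). The 9 tested genes of the calmodulin system all lie below 0, between -0.70 and -0.10, whereas Nrgn is the orange point at 0.53 in the top row.

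The genes whose 4 levels followed those of a member most closely were found by the Euclidean distance between log2 CPM values, each centred on the mean of the gene, over 4 libraries and 11740 protein-coding genes of at least 5 CPM. For Sla they were Cntnap5c (distance 0.0773), Slc16a6 (0.0897) and Gpr61 (0.0999), and for Neurod2 they were Yrdc (0.0373), Nos1 (0.0399) and Spata18 (0.0452). For Neurod6 they were Ino80e (0.0303), Gtf3a (0.0326) and Sae1 (0.0329), and for Slc17a7 they were Arid2 (0.00863), Champ1 (0.0105) and Wdr33 (0.0114). Over only 4 libraries this distance mostly reflects the fold change.

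The promoters of Neurod1, Neurod2 and Nrgn, which changed with FGF2 in different directions, and of Neurod6, which was not shown to change, are shown for the E-boxes that NeuroD proteins bind. RefSeq windows were matched for 6 of the 9 genes and not for Sla, Bhlhe22 and Nrn1. They are windows of 300 bases on GRCm38.p6, from 250 bases before to 50 after the transcript start, 5′ to 3′ on the strand of the gene, and capitals mark CAGATG or its reverse complement CATCTG, or CAGCTG, which is its own reverse complement. The windows are chr2:79456587-79456886 for Neurod1, chr11:98329596-98329895 for Neurod2, chr6:55681214-55681513 for Neurod6 and chr9:37552696-37552995 for Nrgn, all on the minus strand.
Neurod1: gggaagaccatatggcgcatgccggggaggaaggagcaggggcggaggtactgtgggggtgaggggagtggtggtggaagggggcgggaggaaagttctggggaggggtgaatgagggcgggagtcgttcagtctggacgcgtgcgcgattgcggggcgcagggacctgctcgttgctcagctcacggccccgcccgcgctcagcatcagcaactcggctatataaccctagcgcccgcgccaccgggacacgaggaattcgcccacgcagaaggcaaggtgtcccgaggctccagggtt
Neurod2: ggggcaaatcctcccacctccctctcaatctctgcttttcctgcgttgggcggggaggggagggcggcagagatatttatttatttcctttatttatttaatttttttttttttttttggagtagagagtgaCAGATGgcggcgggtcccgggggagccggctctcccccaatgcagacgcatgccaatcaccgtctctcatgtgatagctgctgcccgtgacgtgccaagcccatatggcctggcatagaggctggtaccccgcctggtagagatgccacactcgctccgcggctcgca
Neurod6: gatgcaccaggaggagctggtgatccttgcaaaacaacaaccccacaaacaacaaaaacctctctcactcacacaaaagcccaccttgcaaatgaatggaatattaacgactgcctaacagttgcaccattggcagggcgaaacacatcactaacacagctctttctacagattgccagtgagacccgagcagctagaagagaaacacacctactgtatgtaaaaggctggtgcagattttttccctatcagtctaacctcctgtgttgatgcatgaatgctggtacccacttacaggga
Nrgn: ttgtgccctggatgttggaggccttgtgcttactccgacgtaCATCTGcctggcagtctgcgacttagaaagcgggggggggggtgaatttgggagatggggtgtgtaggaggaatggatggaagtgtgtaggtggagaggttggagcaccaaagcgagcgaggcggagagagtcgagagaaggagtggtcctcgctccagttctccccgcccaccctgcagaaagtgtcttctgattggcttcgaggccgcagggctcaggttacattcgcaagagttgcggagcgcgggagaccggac
The Neurod2 window held 1 CAGATG, whose first base lay at -118 from the start, and the Nrgn window held 1 CATCTG, at -208. Neither motif was found in the windows of Neurod1, Neurod6 and Slc17a7, and of the 2 starts of Slc17a6 the second held 1 CAGATG. For comparison, 17.2% of 32851 promoter windows of this length held CAGATG on either strand and 16.3% held CAGCTG. The wider pattern CANNTG, which includes both, was in 72.3% of all windows and in all 7 windows of the members. A match in 4 to 6 fixed letters is a description of the sequence and not a binding site.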

How the data were processed

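The 4 total RNA libraries were counted per gene by the authors, and the deposited values are raw counts with no normalization. The submitters' processing notes name HISAT2 2.1.0, HTSeq 0.11.2 and the mm10 build. The annotation release and strand setting are not given in the sources used here, so the strand setting was read from the counts. Of 471 genes with at least 98% of their exonic bases under exons of the opposite strand only, 159 had a count. Of 782 genes covered likewise on the same strand only, 8 had a count, which points to counting that kept strands apart. The 5 tally rows of each library were left out (43.2% to 45.9% of reads had no feature), and 3 counts correspond to 0.278 to 0.327 CPM, for counting error only. Exon positions came from GENCODE M21, which matched 55240 of 55421 genes.

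Genes passing filterByExpr were tested with the quasi-likelihood test of edgeR 4.0.16 (TMM scaling, R 4.3.3), over all 17144 genes with Benjamini-Hochberg adjustment and a threshold of 0.05. Alternatives were DESeq2 1.42.0 (the tool in the study's methods), limma-voom (limma 3.58.1), other scalings and filters, GC and length offsets, a replicate block and each library left out. Scripts were tested on simulated data for this comparison, in which edgeR called 154 of 200 genes changed 2-fold and 34 of 200 changed 1.2-fold, among 17144 genes. Near copies were searched with blastn 2.17.0.

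The 9 genes and all lists were chosen with earlier results of these data known. Besides the 9 genes, the text names up to 3 genes a list and direction that passed with the largest change, those that did not pass where under 5 did not, genes that overlap a member, and the 3 nearest in pattern. Gap43, Tcf4, Id1, Prdm8, Emx1, Eomes and single cell type markers were named outside this rule, after their values were seen. Some genes of the lists are not reported here.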

Additional observations from a re-analysis of the deposited data

How the results depend on the processing

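Neurod2, Bhlhe22, Sla and Nrgn kept their direction and their side of the threshold under every alternative run, and Neurod6 and Slc17a7 kept theirs without passing it. Neurod1 was no longer past the threshold with DESeq2 (log2 fold change -0.83), and its log2 fold change ranged from -1.06 to -0.63 with a library left out. Slc17a6 was no longer past it with no expression filter (-0.34), with at least 10 counts in every library (-0.34), with DESeq2 (-0.34) and with limma-voom (-0.33), and ranged from -0.53 to -0.14 with a library left out. Nrn1 turned in sign with upper quartile scaling (-0.0025) and GC and length offsets (-0.015), and ranged from -0.11 to 0.15 with a library left out. The number of the 9 genes that were lower was 3 with DESeq2, 3 at an adjusted p-value of 0.01 and 3 to 4 with a library left out. DESeq2 called 1939 genes lower and 2068 higher, against 3408 and 3541 with edgeR. Relative to pan-neuronal markers, Slc17a6 ranged from -0.057 to 0.28 with a library left out. The median of the telencephalic markers was -0.0058 with upper quartile scaling and ranged from -0.040 to 0.070 with a library left out, and that of the endothelial list ranged from -0.41 to 0.15. The cause of these shifts was not tested. Of the other list values, 35 moved and 709 did not.

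No shared deviation of same-numbered libraries was seen, since their deviations from the group means correlated with r = 0.0040 over 12651 genes. A correlation this small cannot show whether same-numbered libraries came from a common source. With the replicate number as a block, the log2 fold change was -0.33 for Slc17a6 (edgeR adjusted p = 0.0564), and -0.016 for Nrn1 when combined with GC and length offsets. The block changed the call of no other of the 9 genes. With 2 libraries a group that may be technical replicates, and 29 to 85 counts a library for Neurod1 and Nrn1, a change as small as 1.2-fold was rarely called in simulated data. Where a library was left out, the lone library of its group was assumed to vary like the other group.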

Other observations

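Further marker lists bear on which cells the cultures held. Of 4 tested Cajal-Retzius markers, Reln and Calb2 were lower with FGF2 and Ndnf was higher (median log2 fold change of the 4, -0.44). The factor Trp73, with 94 to 146 counts per library, did not pass (-0.23, edgeR adjusted p = 0.327). The factors Lhx1 and Lhx5 had 0 to 6 counts in each library. The 1 tested endothelial marker did not pass (-0.16), and Cldn5 had no count in any library. Of 4 tested markers of meningeal fibroblasts and mural cells, 1 was lower and 1 was higher (median -0.50). These single genes were chosen after their values were seen.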
